A study of Mus musculus with 7 samples.

Results

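The genes described here are 10 genes of MHC (major histocompatibility complex) antigen presentation, followed across 2 types of sorted mouse neurons. They were picked by symbol as a family after H2-Ab1 had been seen to differ between the groups in these same values. The comparison of Pomc with Npy neurons is therefore a description for the members, with no test. Of the 10 genes, 9 have a row among the 18335 gene symbols analysed here, and H2-Aa has none. The samples are neurons from arcuate nuclei, dissected from E15.5 mouse embryos (the number is the day of embryonic development), dissociated and purified by fluorescence-activated sorting. One group is Pomc neurons (4 libraries), which make the precursor of appetite-suppressing peptides, and the other is Npy neurons, which make the appetite-stimulating neuropeptide Y. The labels name no genotype, strain, reporter, litter or treatment for either group, so differences between replicates may be technical. The Npy group has 3 columns, but the column of replicate 3 equals the mean of the other 2 multiplied by a whole percent between 95 and 105 in all 15223 genes with a value (within 1e-04 percentage points), so n is 4 Pomc and 2 Npy libraries.

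MHC molecules show peptides at the cell surface to T cells. A class II molecule is a pair of an alpha and a beta chain, is held on the invariant chain Cd74 until a peptide is loaded, and is switched on by the regulator Ciita, mainly in dendritic cells, B cells and macrophages. A class I molecule is a heavy chain bound to B2m, filled with peptides that the transporter Tap1 and Tap2 moves into the endoplasmic reticulum. Class I genes are found in nearly all tissues and are also studied in developing neurons, where they are known for roles in synapse refinement.

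The regulatory DNA that class I and class II genes share is shown first, since the members of both classes are set side by side below. Of the 10 members, 6 matched an entry in the RefSeq promoter table (build GRCm38.p6). H2-Ab1, Cd74, Ciita and Tap2 have no entry. Printed are the 250 bases before the start of 2 class II chain genes (H2-Aa, H2-Eb1), the class I light chain gene B2m and 2 class I heavy chain genes (H2-D1, H2-K1). Capitals mark the letters TGACG (a half-site of the CRE element) followed by ATTGG (an inverted CCAAT box), and, in H2-D1 and H2-K1, the longest run of letters that both promoters share. In H2-Eb1 they mark ATTGG alone.
H2-Aa chr17:34287824-34288073, minus strand: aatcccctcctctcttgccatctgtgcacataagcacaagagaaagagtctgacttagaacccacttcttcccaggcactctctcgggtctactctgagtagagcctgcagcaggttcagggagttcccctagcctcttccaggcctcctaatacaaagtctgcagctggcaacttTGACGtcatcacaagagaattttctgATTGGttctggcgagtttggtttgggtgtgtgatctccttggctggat
H2-Eb1 chr17:34305617-34305866, plus strand: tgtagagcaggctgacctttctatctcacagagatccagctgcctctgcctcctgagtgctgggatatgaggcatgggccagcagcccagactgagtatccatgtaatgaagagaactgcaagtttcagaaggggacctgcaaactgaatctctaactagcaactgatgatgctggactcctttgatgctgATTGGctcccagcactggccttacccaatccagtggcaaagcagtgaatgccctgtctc
B2m chr2:122147437-122147686, plus strand: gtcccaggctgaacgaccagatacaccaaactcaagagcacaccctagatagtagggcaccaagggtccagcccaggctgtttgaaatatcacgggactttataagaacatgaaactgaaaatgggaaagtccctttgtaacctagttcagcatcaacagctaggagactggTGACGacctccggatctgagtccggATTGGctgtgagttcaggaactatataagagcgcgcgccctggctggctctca
H2-D1 chr17:35262844-35263093, plus strand: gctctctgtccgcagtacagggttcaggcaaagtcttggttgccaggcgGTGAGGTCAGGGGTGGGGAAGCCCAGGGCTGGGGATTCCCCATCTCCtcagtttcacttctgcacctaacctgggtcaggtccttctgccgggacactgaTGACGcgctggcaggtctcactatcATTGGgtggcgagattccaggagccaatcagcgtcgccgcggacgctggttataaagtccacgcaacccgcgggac
H2-K1 chr17:34000348-34000597, minus strand: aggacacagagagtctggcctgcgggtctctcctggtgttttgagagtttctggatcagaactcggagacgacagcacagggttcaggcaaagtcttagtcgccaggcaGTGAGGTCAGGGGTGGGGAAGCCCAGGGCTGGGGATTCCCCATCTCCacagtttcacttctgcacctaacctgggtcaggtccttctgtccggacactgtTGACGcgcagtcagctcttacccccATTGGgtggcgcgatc

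The pair of TGACG and ATTGG on 1 strand, with 10 to 30 bases between them, stood in 4 of the 6 promoters. The gap was 21 bases in H2-Aa and 20 bases in B2m, H2-D1 and H2-K1. Searched on both strands in the same 250 bases of all 32851 promoter entries, the pair occurred in 0.642%. The motifs and the range of the gap were chosen after these promoters had been read, so the 4 matches are a description. The run shared by H2-D1 and H2-K1 is 47 bases long and begins 201 and 141 bases before their starts. On either strand it occurs in 3 of all entries (0.00913%), 1 of H2-D1 and 2 of H2-K1.

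H2-Ab1, the beta chain of the class II molecule I-A (chromosome 17, 34257689 to 34269419, plus strand, GRCm38), had values in every Pomc library and in neither Npy library. It stood at 39.7, 17.6, 17.5 and 18.6 TPM in Pomc replicates 1 to 4, and was listed at 0 in Npy replicates 1 and 2. TPM is a transcript level that accounts for gene length and for the library's total. The mean was 23.4 ± 10.9 TPM (SD, n = 4), with replicate 1 above the other 3, which lay close together. Among genes above 0 in the same library, 64.7% had a lower value than H2-Ab1 in Pomc replicate 1 and 39.0 to 44.5% in the other Pomc libraries, so it stood near the middle of the genes detected.

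Genes with at least 10 TPM in every Pomc library beside 0 in both Npy samples, as H2-Ab1 has, were counted. This criterion was applied with the difference of H2-Ab1 known, so its own place in the count is a description. Of the 8054 genes that reached 10 TPM in every Pomc library, 2 (0.0248%) were listed at 0 in both Npy samples. They were H2-Ab1 and Adcyap1, which encodes the neuropeptide PACAP. Taken singly, Npy replicate 1 listed 3 of these 8054 genes at 0 and Npy replicate 2 listed 23 (0.286%). The values keep no read depth, so no counting interval or detection limit can be given for these zeros.

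The other class II members analysed were at or near 0 in the same Pomc libraries. H2-Eb1, the beta chain of the second class II molecule I-E, stood at 1.30 TPM in Pomc replicate 1 and was listed at 0 in the other 5 libraries. Cd74, the invariant chain, was listed at 0 in all 6 libraries, and so was Ciita, the regulator of class II transcription. H2-Aa, the alpha chain that pairs with the H2-Ab1 product, was not analysed here. Pomc replicate 1, the library with the most H2-Ab1, was thus also the library with a value for H2-Eb1.

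**Figure D1:**
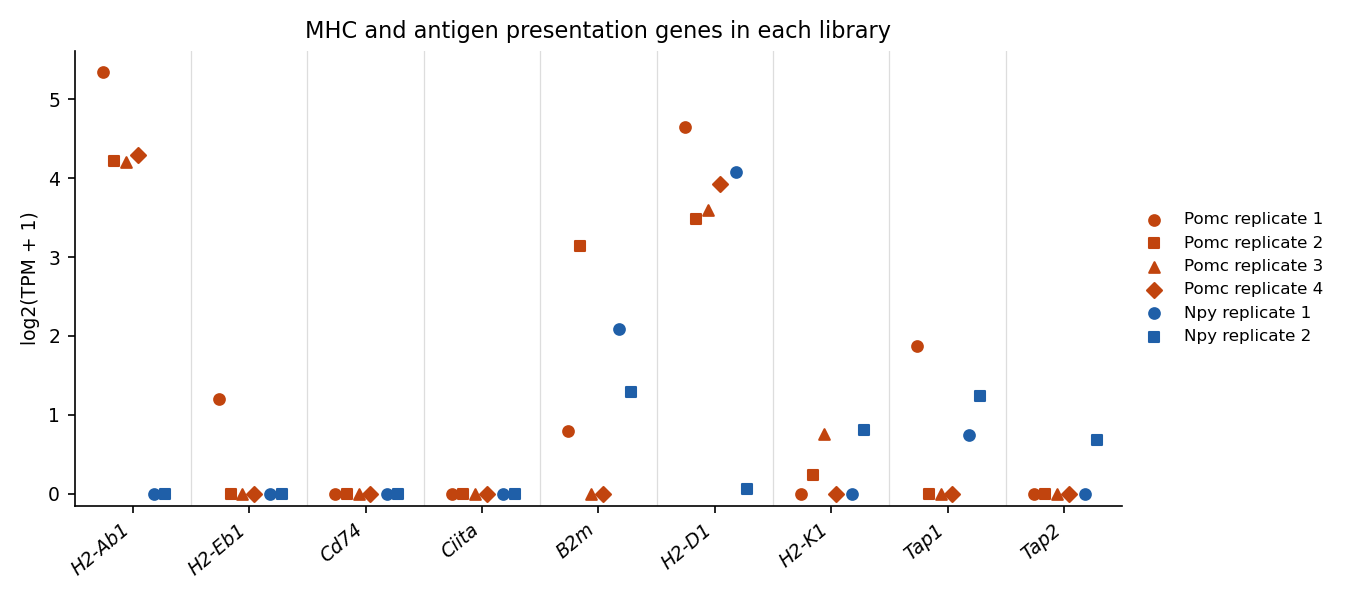
Values of the 9 members analysed, as log2(TPM + 1) for each library (orange, Pomc; blue, Npy; symbols mark replicates). H2-Ab1 lies at 17.5 to 39.7 TPM in all 4 Pomc samples and at 0 in both Npy samples, while Cd74 and Ciita lie at 0 in all 6.

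The rest of the class II loading pathway was compared through genes outside the members. H2-DMb1 and H2-DMb2, the beta chains of the editor that exchanges peptides on class II molecules, were listed at 0 in all 6 libraries, as were H2-Oa and H2-Ob, the chains of its inhibitor. H2-DMa, the alpha chain of the editor, was measured in every library, at 3.57, 2.89, 6.09 and 2.57 TPM in Pomc samples and at 5.31 and 2.98 TPM in Npy samples, and the groups overlapped. Ctss, the cathepsin that trims the invariant chain in antigen-presenting cells, had a value in Pomc replicate 4 alone, at 1.42 TPM. Proteases with general lysosomal roles were higher in level. Ctsl stood at 79.4 ± 20.0 TPM (SD, n = 4) in Pomc samples against 83.0 and 103 TPM, and Lgmn at 19.8 ± 11.6 TPM against 29.3 and 35.3 TPM. Ifi30, a lysosomal thiol reductase, stood at 0 to 9.49 TPM in Pomc samples and at 10.5 and 7.83 TPM in Npy samples.

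Factors that bind class II promoters, all with wider roles, were measured in both groups. The NF-Y subunit genes Nfyb (121 ± 51.7 TPM against 104 and 103) and Nfyc (78.0 ± 20.7 TPM against 87.3 and 74.1) were the most abundant, and Creb1 stood at 53.8 ± 9.48 TPM against 58.0 and 42.7. The subunit gene Nfya stood at 34.9 ± 5.48 TPM against 36.9 and 39.1. Rfx5, Rfxank and Rfxap, whose products form the RFX complex on these promoters, ranged from 4.41 to 50.7 TPM in Pomc samples and from 8.83 to 70.4 TPM in Npy samples. None of these 7 genes passed the threshold defined below.

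H2-Ab1 lies in a block of class II genes, and the genes analysed near it did not share its pattern of values. H2-Ob, its neighbour on the lower side, was listed at 0 in every library. On the upper side H2-Aa lies between H2-Ab1 and H2-Eb1, and it was not analysed. H2-Eb1 is described above, and H2-Eb2 stood at 1.73, 0, 0 and 4.89 TPM in Pomc samples and at 0.706 and 0 TPM in Npy samples. Psmb8 and Psmb9, which encode subunits of the immunoproteasome, were listed at 0 in all 6 libraries. Brd2, a chromatin reader gene in the same block, was abundant in both groups, at 245 ± 16.1 TPM (SD, n = 4) against 205 and 230 TPM. In all, 6 of the 14 genes of the block analysed were listed at 0 in all 6 libraries. By the GENCODE M21 annotation no other gene overlaps H2-Ab1, H2-D1 or H2-K1. H2-Eb1, Tap1, Tap2, B2m and Ciita each overlap a gene on the other strand, and H2-DMa overlaps the abundant Brd2 there and another gene model on its own strand. The labels do not say whether the counting used strand.

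**Figure D2:**
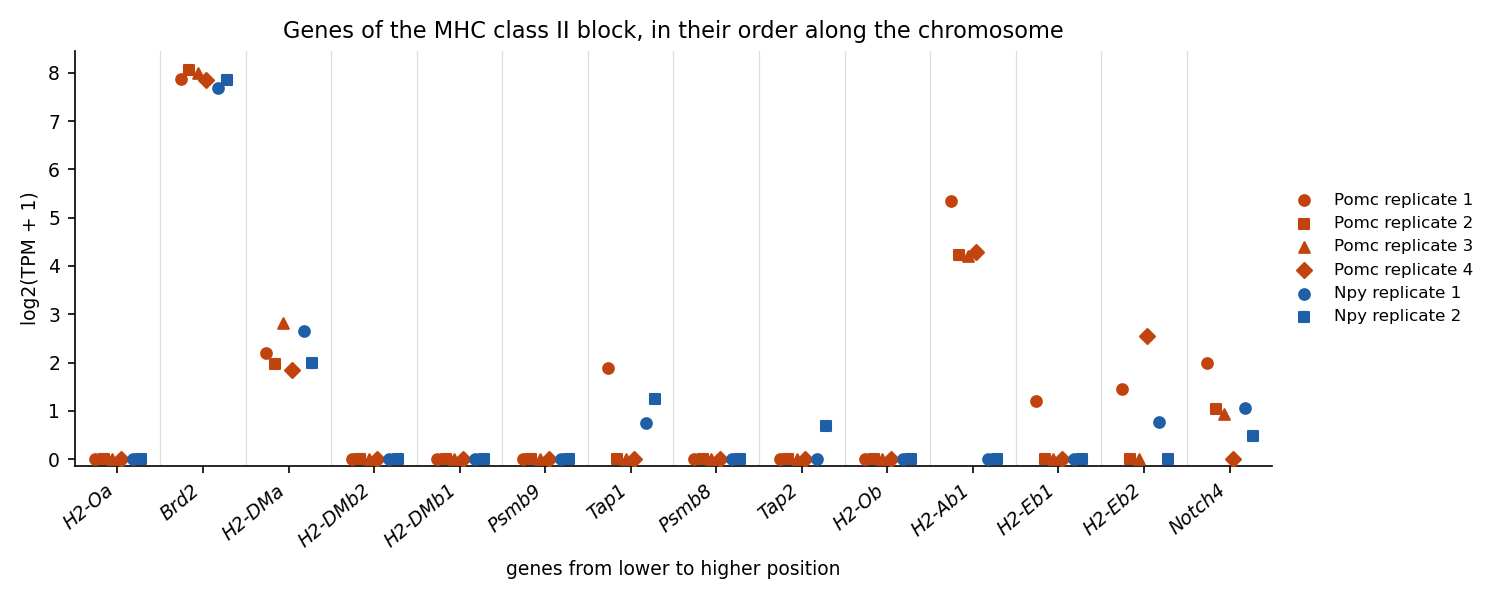
Values of 14 genes of the MHC class II block in their order along chromosome 17, as log2(TPM + 1) for each library (orange, Pomc; blue, Npy). H2-Ab1 is above 0 in Pomc samples alone, drawn beside H2-Ob at 0 in all 6 libraries and H2-Eb1 with a single value of 1.30 TPM. H2-Aa, which lies between H2-Ab1 and H2-Eb1, was not analysed.

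The groups overlapped in each of the class I members. H2-D1, a classical heavy chain (chromosome 17, 35262730 to 35267499), stood at 24.1, 10.2, 11.1 and 14.2 TPM in Pomc replicates 1 to 4 and at 15.8 and 0.0395 TPM in Npy replicates 1 and 2. Npy replicate 1 lay inside the Pomc range, and Npy replicate 2 far below it. The log2 difference (Pomc minus Npy, on log2(TPM + 1)) was 1.85 ± 0.99 (SE). It was -0.16 without Npy replicate 2 and 3.86 without Npy replicate 1, so its sign rests on 1 library.

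H2-K1, the other classical heavy chain (chromosome 17, 33996017 to 34000347), stood at 0, 0.175, 0.697 and 0 TPM in Pomc samples and at 0 and 0.750 TPM in Npy samples. It was under 1 TPM in all 6 libraries, although its promoter holds the marked letters of H2-D1. B2m, the light chain of every class I molecule (chromosome 2, 122147686 to 122153083), stood at 0.741, 7.83, 0 and 0 TPM in Pomc samples and at 3.26 and 1.44 TPM in Npy samples. Its groups overlapped, with a log2 difference of -0.70 ± 0.97 (SE). In Pomc replicates 3 and 4 H2-D1 had values above 10 TPM while B2m was listed at 0.

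The peptide transporter genes were at the lower end. Tap1 stood at 2.67 TPM in Pomc replicate 1, at 0 in the other 3 Pomc libraries and at 0.669 and 1.37 TPM in Npy samples (log2 difference -0.52 ± 0.78, SE). Tap2 had a single value, 0.606 TPM in Npy replicate 2. The highest Pomc values of H2-Ab1, H2-Eb1, H2-D1 and Tap1 thus all belonged to Pomc replicate 1. That of B2m belonged to Pomc replicate 2 and that of H2-K1 to Pomc replicate 3.

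Among the other class I heavy chain genes, several rows cannot be read as separate genes. H2-L stood at 34.4, 12.4, 14.0 and 18.3 TPM in Pomc samples and at 24.7 and 0.0644 TPM in Npy samples. It followed H2-D1 in all 6 libraries at a ratio of 1.21 to 1.63. H2-T22 and H2-T9 kept a ratio of 0.932, H2-Q7 and H2-Q9 a ratio of 0.990 and H2-Q6 and H2-Q8 a ratio of 1.03 in every library with a value. These are near-identical copies, and reads shared between copies could give such fixed or close ratios. The labels do not say how the counting treated them. H2-L, H2-T9, H2-Q9 and H2-Q8 have no gene of that name in the GENCODE M21 annotation. H2-T24 was above 0 in all 6 libraries (6.94 ± 4.81 TPM, SD, n = 4, against 10.4 and 13.4 TPM). Cd1d1, which presents lipids, ranged from 0.566 to 14.8 TPM in Pomc samples and stood at 4.78 and 18.0 TPM in Npy samples.

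**Figure D3:**
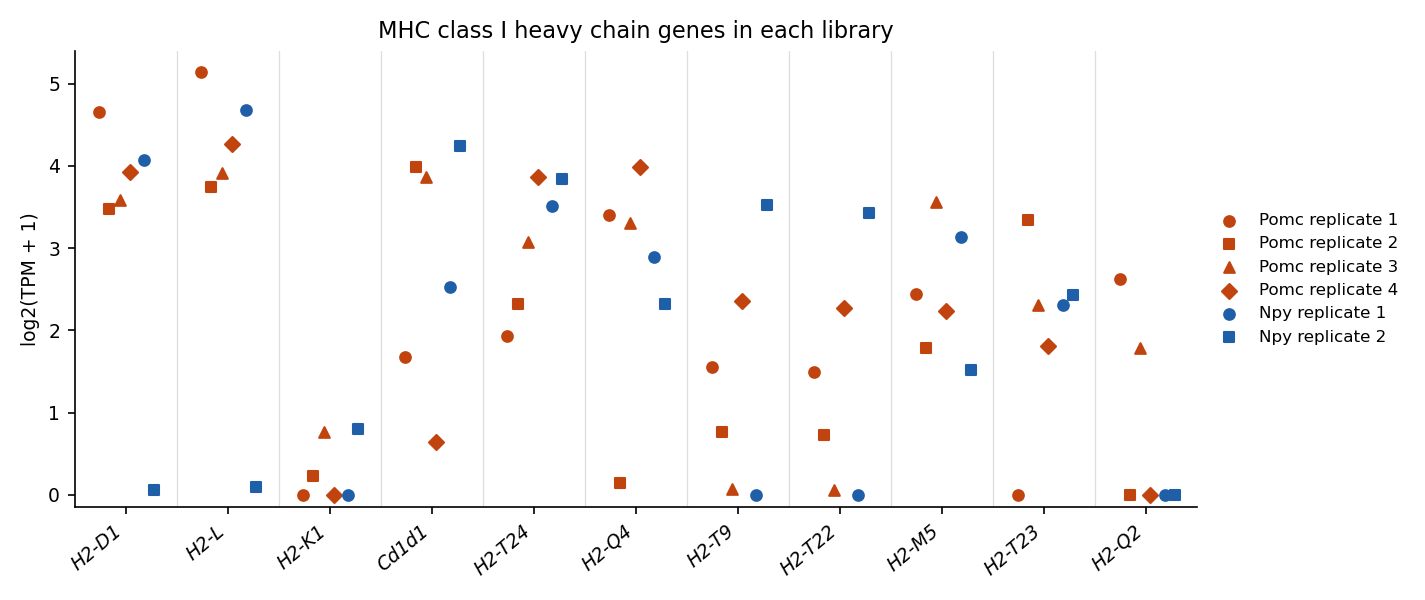
Values of 11 class I heavy chain genes, as log2(TPM + 1) for each library (orange, Pomc; blue, Npy). H2-D1 and H2-L share 1 pattern, with Npy replicate 2 near 0, and H2-K1 is under 1 TPM in all 6 libraries.

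Chaperones that fold class I molecules along with many other proteins were abundant at similar levels. Calr, calreticulin, stood at 755 ± 132 TPM (SD, n = 4) in Pomc samples against 748 and 732 TPM, and Canx, calnexin, at 364 ± 87.0 TPM against 383 and 298 TPM. Psme1, a proteasome activator subunit, stood at 344 ± 147 TPM against 301 and 315 TPM. Tapbp, tapasin, which is dedicated to class I loading, was far lower at 12.5 ± 2.65 TPM against 12.6 and 22.4 TPM. Nlrc5, the regulator of class I transcription, had values between 0.231 and 0.906 TPM in Pomc samples and was listed at 0 in both Npy samples. It was named after its values were seen, and it did not reach the level needed for testing. The general factors Rela, Irf2 and Nfkb1 stood at 26.9 ± 9.45, 14.1 ± 2.62 and 10.1 ± 2.87 TPM (SD, n = 4) in Pomc samples. In Npy samples Rela stood at 24.8 and 10.8 TPM, Irf2 at 21.4 and 16.1 TPM and Nfkb1 at 14.0 and 13.8 TPM.

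Receptors for class I molecules were scarce. Pirb and Cd4 (the latter a class II receptor) were listed at 0 in all 6 libraries. Lilrb4 and Klra2 had values of 9.21 and 6.64 TPM in Pomc replicate 4 and were at most 0.0873 TPM elsewhere. Cd8a was above 0 in 2 libraries, at most 0.736 TPM.

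A fit across the whole table (limma with a variance trend, on log2(TPM + 1)) covered the 13845 genes that reached 1 TPM in at least 2 of the 6 libraries. It called 57 genes (0.412%) at an adjusted p under 0.05, of which 40 (0.289%) were higher in Pomc neurons. Of the 9 members 4 were tested (H2-Ab1, H2-D1, B2m and Tap1), and 1 was called, H2-Ab1. A member that passed the filter through Pomc samples alone had to differ, and H2-Ab1 helped to choose the members, so nothing is read from this count. H2-Ab1 was also the 1 member whose groups did not overlap, which holds for 15.9% of all tested genes.

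No further gene of the pathway passed the threshold in the same fit. Of 71 further antigen presentation genes, 64 were analysed and 35 were tested. None passed by limma in either direction, and 0 had an unadjusted p under 0.05, which 7.36% of all tested genes had. Their lowest adjusted p was 0.788. The median log2 difference was -0.09 (16 genes above 0 and 19 below), against 0.02 over all tested genes. H2-L, H2-T9 and H2-T22, whose rows cannot be read as separate genes, are each counted here. The groups did not overlap in 2 of the 35 (5.71%), Nfkb1, lower in Pomc samples, and Psme3, higher in them. A p that misses the threshold does not show equal levels, and with 2 Npy libraries small differences can be missed.

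**Figure D4:**
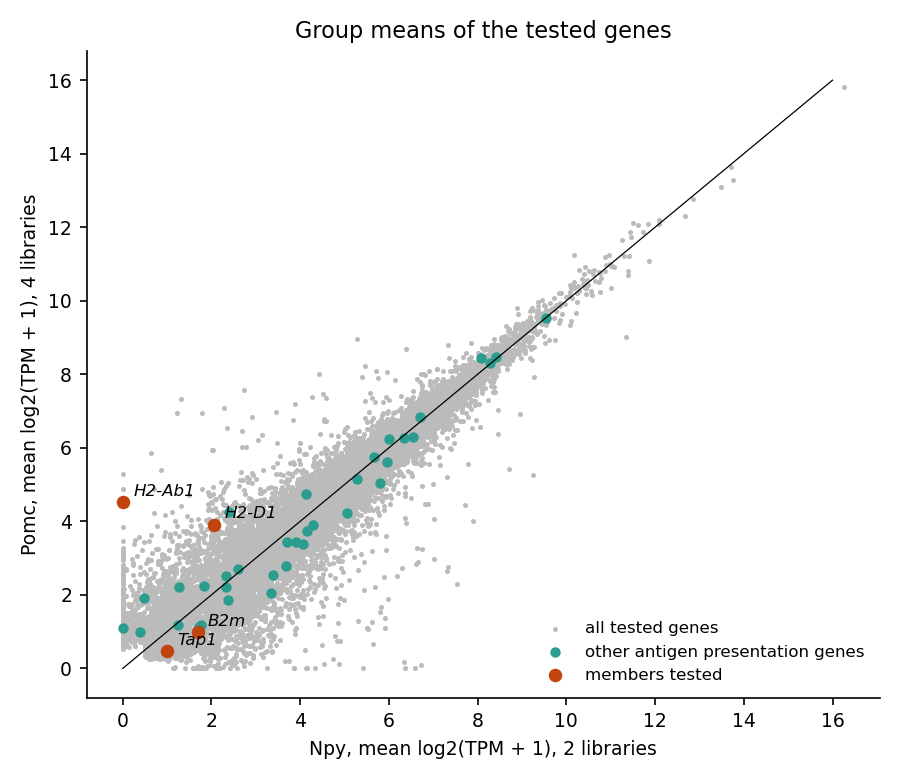
Mean log2(TPM + 1) of the 4 Pomc libraries against that of the 2 Npy libraries for the 13845 tested genes (grey), the 35 further antigen presentation genes (green) and the 4 tested members (orange), with the line of equal means. H2-Ab1 stands at 0 on the Npy axis, and the 35 further genes lie on both sides of the line.

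Genes with values most like those of H2-Ab1 over the 6 libraries were not MHC genes. Among 13844 genes ranked, the 5 with the highest Pearson correlation of log2(TPM + 1) were Lmo3 (r = 0.997), Lrig1 (0.994), Aim1 (0.994), Npcd (0.989) and Nr5a1 (0.989). The 6 points fall into 2 groups of libraries, so any gene that is higher in Pomc libraries with replicate 1 on top scores highly. Lmo3, a LIM-only transcription cofactor, stood at 224, 151, 147 and 144 TPM in Pomc samples and at 48.8 and 47.7 TPM in Npy samples. Nr5a1, the transcription factor steroidogenic factor 1, stood at 167, 137, 119 and 118 TPM against 5.25 and 2.81 TPM. Aim1 had a mean of 10.4 ± 3.45 TPM (SD, n = 4) against 0.422 and 0.592 TPM, a level of the same order as that of H2-Ab1.

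Cells that normally carry class II were looked for through marker genes fixed by list. In sorted bulk samples, fewer cells of a type and less RNA per cell cannot be told apart. Of 9 pan-leukocyte genes, 6 were listed at 0 in all 6 libraries, among them Spi1, Tyrobp and Fcer1g, and Ptprc, which encodes CD45, had values of 0.850 TPM in Pomc replicate 3 and 1.48 TPM in Npy replicate 1 alone. The summed level of the list was 33.8 to 66.6 TPM in Pomc samples against 34.5 and 30.9 TPM, and nearly all of it was Coro1a (32.4 to 66.2 TPM against 31.1 and 30.9), highest in Pomc replicate 1. Itgax and Batf3, genes of dendritic cells, were listed at 0 in all 6 libraries. Flt3, named after its values were seen, stood at 1.69 TPM in Pomc replicate 1, the library with the most H2-Ab1, at 0.523 TPM in replicate 3 and at 0 elsewhere. Zbtb46 made up most of the dendritic cell list of 5 genes analysed, which summed to 15.4 to 32.4 TPM against 31.3 and 52.0 TPM. The B cell genes Cd22 and Cd79a were at most 0.149 TPM.

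Microglia and macrophage genes singled out another library than the one with the most H2-Ab1. The 11 microglia genes summed to 74.7 TPM in Pomc replicate 4 and to at most 13.6 TPM in Npy samples. The sum was 12.4 TPM in Pomc replicate 1 and 10.4 TPM in replicate 3, and replicate 2 lay slightly above both Npy samples. C1qa, Tmem119 and Trem2 were listed at 0 in all 6 libraries. P2ry12, chosen after its values were seen, stood at 22.7 TPM in Pomc replicate 4 and at 0 elsewhere. The 5 border macrophage and monocyte genes analysed summed to 3.34, 4.29, 11.3 and 28.4 TPM in Pomc samples and to 2.00 and 0 TPM in Npy samples. Their main gene was Cd68, a lysosomal glycoprotein of macrophages, at 26.8 TPM in Pomc replicate 4, with no overlap between the groups, and Lyve1, F13a1 and Ccr2 were listed at 0 in all 6. H2-Ab1 in Pomc replicate 4 stood at 18.6 TPM, next to 17.6 and 17.5 TPM in replicates 2 and 3. The part of these marker genes' cells in its difference was not tested.

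**Figure D5:**
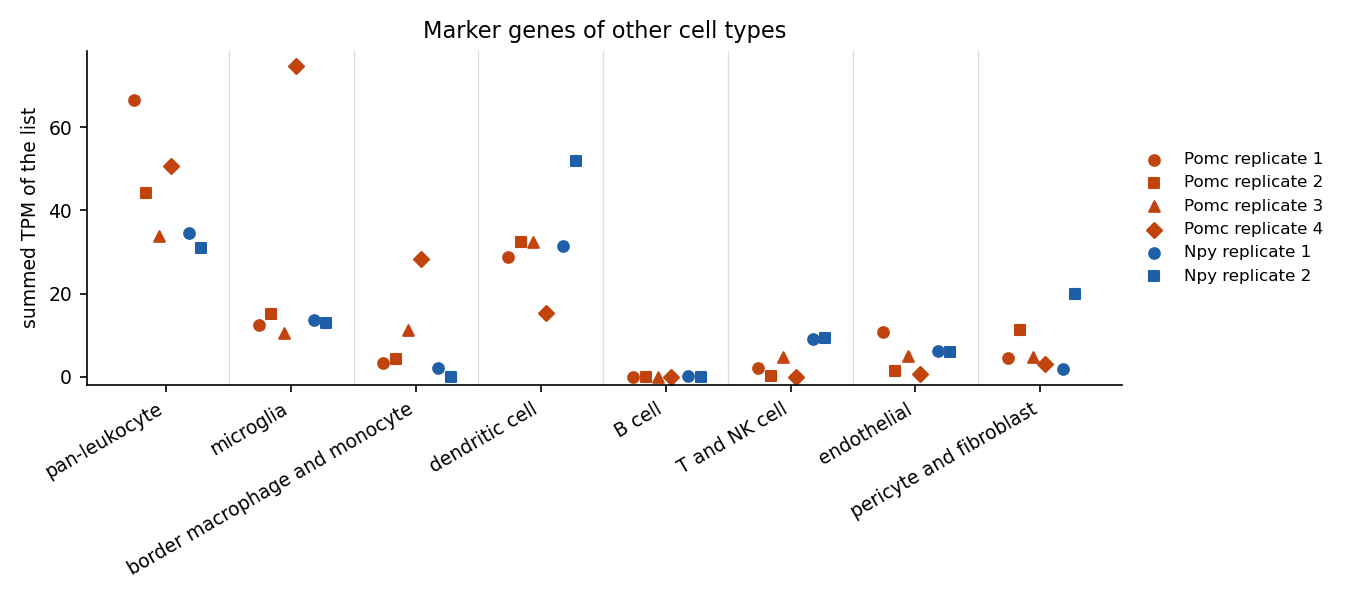
Summed TPM of marker genes of 8 other cell types in each library (orange, Pomc; blue, Npy). The microglia list reaches 74.7 TPM in Pomc replicate 4, far above the other 5 libraries, and the B cell list is near 0 in all 6.

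Vascular and connective tissue markers were low. The 8 endothelial genes summed to 0.656 to 10.7 TPM in Pomc samples against 6.26 and 5.94 TPM, and 8 pericyte and fibroblast genes to 2.96 to 11.2 TPM against 1.75 and 19.8 TPM. Pomc replicate 1 had the highest endothelial sum and Pomc replicate 2 the highest pericyte and fibroblast sum of their group. Tubb3, a tubulin of neurons, was abundant in both groups, at 1862 ± 338 TPM (SD, n = 4) against 1094 and 1439 TPM. Within the Pomc group Tubb3 was highest in replicate 1, at 2346 TPM, while Map2, also a neuronal gene, was lowest there, at 673 TPM. Of the 3 sort markers, Pomc and Npy followed the labels and Agrp did not. Pomc stood at 352 to 770 TPM in its own sort, highest in replicate 1 like H2-Ab1, and at most at 59.4 TPM in the other. Npy stood at 513 and 728 TPM in its own sort and at 2.11 to 152 TPM in the other. Agrp, a peptide that Npy neurons of the adult arcuate nucleus make, stood at 0 to 6.82 TPM in Pomc samples and at 5.53 and 1.75 TPM in Npy samples. The 6 genes of oligodendrocyte precursors summed to 228 and 207 TPM in Npy samples and to at most 2.64 TPM in Pomc samples. These genes moved with the groups opposite to H2-Ab1, and their part in its difference was not tested.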

How the data were processed

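The 7 libraries were made from 1 ng of total RNA with a stranded kit, per the labels' protocols, and share a table of 18335 gene symbols. The header names no unit. The deposited values were read as TPM, since each of the 6 columns used sums to 1000000 and the values are not whole. TPM keeps no read depth, so none is given. HISAT2, mm10 and edgeR 3.8 are named in the submitters' processing notes, with no role. For the counter, annotation and use of strand, the sources used here give nothing.

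Differences were fitted with limma 3.58.1 in R 4.3.3, on log2(TPM + 1) with a variance trend, for genes at 1 TPM or more in at least 2 of 6 libraries. The threshold was a Benjamini-Hochberg adjusted p of 0.05, two-sided. Tested on simulated data for the same comparison (13845 genes), the fit called 11, 42, 48 and 50 of 50 genes changed by 1, 2, 3 and 4 on the log2 scale, and 11 of 13645 unchanged genes. All changed genes were drawn from those above the median mean level. The simulated counts therefore give no sensitivity for lower genes or for low genes with zeros, such as B2m. The 4 rows of repeated date-like symbols were left out, and March1 and March8 could not be matched. The members, lists and tests were chosen with earlier results of these data known. Text names all members, called list genes, the 3 (cell types: 2) highest genes of each list, genes listed at 0 and the 5 most like H2-Ab1. Positions are from GENCODE M21 (GRCm38, the same build as mm10). Alternatives were other pseudocounts and filters, no trend, rescaling, a replicate block, the column of Npy replicate 3 and leaving out each library.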

Additional observations from a re-analysis of the deposited data

Results flagged for a closer look

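In each of the 62 genes named by rule, the Pomc library farthest from the others was set against the range of the 4 Pomc libraries, and 13 genes stood out, where chance gives about 1 in 20. In 8 of the 13 the remaining Pomc samples are all at 0, so any value stands out, and the chance rate does not apply. Nor does it apply to H2-Ab1, which was seen beforehand, or to Lmo3, which was chosen for values like those of H2-Ab1.

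Members made up 4 of the 13. For H2-Ab1 it was Pomc replicate 1, at 39.7 TPM beside 17.5 to 18.6 TPM, and among Pomc samples H2-Eb1 (1.30 TPM) and Tap1 (2.67 TPM) were above 0 in the same library alone. B2m reached 7.83 TPM in Pomc replicate 2 against at most 0.741 TPM. Lmo3, whose values are like those of H2-Ab1, stood at 224 TPM in Pomc replicate 1, beside 144 to 151 TPM.

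Among class I receptors, Lilrb4 (9.21 TPM) and Klra2 (6.64 TPM) stood out in Pomc replicate 4 and Cd8a (0.736 TPM) in replicate 2. Among markers of other cells, Mrc1 (1.51 TPM) stood out in Pomc replicate 4, Xcr1 (2.42 TPM) and Esam (0.206 TPM) in replicate 3, and Cd22 (0.0217 TPM) and Pdgfra (0.484 TPM) in replicate 2.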

How the results depend on the processing

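The count of genes past the threshold over the whole table, 57 in the fit used, was 37 with a pseudocount of 0.1, 33 with no filter on low values, 205 with Npy replicate 3 as a replicate and 12 with a replicate block; leaving out 1 library at a time gave 22 to 69, with 31, 36 and 29 without Pomc replicates 1, 2 and 3 and 22 without Npy replicate 2. The further antigen presentation genes gave 0 called genes under every alternative run. The call of H2-Ab1, from which nothing is read, ended with no filter, with the replicate block and when Npy replicate 2, Pomc replicate 1 or Pomc replicate 3 was left out. Of 261 values of 19 other member and pathway genes under the alternatives, 250 moved by less than the spread (1 SD) of the Pomc libraries and 11 by more; none of the 19 was called, and the sign changed in 26 values. Replicate numbers are shared by the groups, and deviations of same-numbered libraries from their group means correlated at -0.04 and -0.03. With 2 Npy libraries the Npy deviations mirror each other, so these values cannot decide whether same-numbered libraries share a batch. Zeros in low-input libraries and the absence of read depth limit every statement on genes listed at 0.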

Other observations

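Interferon gamma is the classical inducer of class II genes, and the genes of its receptor and kinases were measured in both groups. Ifngr1, a receptor chain named after its values were seen, stood at 21.3, 9.33, 8.56 and 9.14 TPM in Pomc replicates 1 to 4. In Npy samples it stood at 8.43 and 3.17 TPM. Its groups did not overlap, which holds for 15.9% of all tested genes, and Pomc replicate 1 was highest. The adjusted p of Ifngr1 in the limma fit was 0.808. The part of interferon signalling in the difference of H2-Ab1 was not tested. Jak2 stood at 77.5 ± 7.07 TPM (SD, n = 4) in Pomc samples against 72.2 and 42.4 TPM, Jak1 at 63.8 ± 14.4 TPM against 54.7 and 33.5 TPM, and Ifngr2 at 31.3 ± 13.9 TPM against 15.7 and 22.7 TPM. Of 20 interferon response genes analysed, 9 were tested, 0 passed by limma (0.412% of all tested genes did) and 0 had an unadjusted p under 0.05 (7.36% of all). Of the 9, 7 had a log2 difference above 0, with a median of 0.61 against 0.02 over all tested genes. Isg15, Ifit3, Gbp2, Gbp3, Mx1, Oas1a and Ifitm3, which respond to interferons, were listed at 0 in all 6 libraries. Some others, named after their values were seen, were above 0 in Pomc samples alone. Ifi27 stood at 3.14, 0.182, 0 and 6.94 TPM in Pomc replicates 1 to 4. Usp18 stood at 4.24 TPM in Pomc replicate 1 and Bst2 at 1.30 TPM in Pomc replicate 3. Gbp7, in contrast, was above 0 in Npy replicate 1 alone, at 0.468 TPM. Ifit1 stood at 1.03 TPM in Npy replicate 1 and at most at 0.145 TPM in Pomc samples. Irf7 stood at 6.05 TPM in Pomc replicate 4, at 2.88 TPM in Npy replicate 2 and at 0 elsewhere.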
